A study of Mus musculus with 5 samples.

Results

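Primary mouse astrocyte cultures given amyloid-beta together with DFMO were compared with cultures given amyloid-beta alone. DFMO (difluoromethylornithine) blocks ornithine decarboxylase, the product of Odc1, without releasing it again. The comparison used the normalized group means of the authors' deposited DESeq2 table, which lists 18783 genes. Of these, 11780 had a mean of at least 200 in the amyloid-beta group and were eligible, and 11660 of them also had a GC content in the reference and were kept. The other 120 had no GC value.

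All cultures were of the C57BL/6 strain, were prepared from newborn pups, and were harvested after 12 days in vitro in a medium holding horse and fetal bovine serum. The Abeta group (2 libraries) received 1 µM amyloid-beta for 5 days from day 7 in vitro, and the Abeta_DFMO group (1 library) received the same with 50 µM DFMO. Untreated cultures (Control, 2 libraries) are given only beside these values. DFMO without amyloid-beta was not analysed here, so an effect of DFMO cannot be told apart from one that needs both agents.

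Polyamines are small organic cations that bind RNA and DNA. Ornithine decarboxylase makes putrescine, S-adenosylmethionine decarboxylase (Amd1) makes the aminopropyl donor, and the spermidine and spermine synthases (Srm, Sms) build the longer polyamines. Cells adjust this pathway by feedback: antizymes (Oaz1, Oaz2) bind ornithine decarboxylase and hand it to the proteasome, and antizyme inhibitors (Azin1) oppose them. Spermidine also provides the hypusine residue of the translation factor eIF5A. Astrocytes are the glial cells that take up glutamate and potassium, and cultures made from newborn brain commonly hold microglia, oligodendrocyte lineage cells and vascular or meningeal cells as well.

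The depth of the Abeta_DFMO library limits every value. It had 4825677 reads, against 46886111 and 105544237 in the Abeta libraries and 49020833 and 49676004 in Control, that is 9.72 to 21.9 times fewer. The share of reads within exons was alike in all libraries (84.42% to 85.18%). About 7.466 normalized units corresponded to 1 read of the Abeta_DFMO library: 80.3% of its 7239 low values were whole multiples of this unit within 0.05. The minimum of 200 was thus worth about 26.8 reads, and the median gene kept about 143. Group means carry no spread of their own and only 1 library stands behind Abeta_DFMO, so there was no replicate check; the p-values assume that this library varied like the others. The labels do not say whether libraries came from separate cultures, so the spread may be technical.

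Many low-GC transcripts lay higher and many high-GC transcripts lower in Abeta_DFMO, and that pattern came before any pathway. Across the genes kept, which are not independent and share 1 Abeta_DFMO library, Spearman's rho between the log2 ratio and transcript GC content was −0.71. The trend passed through 0.33 at 40% GC, −0.03 at 50% and −0.54 at 60%, and it held 46.4% of the variance of the log2 ratios. Abeta over Control, which shares the Abeta libraries, gave a rho of 0.12 over the same genes. With 1 Abeta_DFMO library, a property of that library and an effect of the treatment cannot be told apart, and taking off the trend also takes off any difference that follows GC content.

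**Figure D1:**
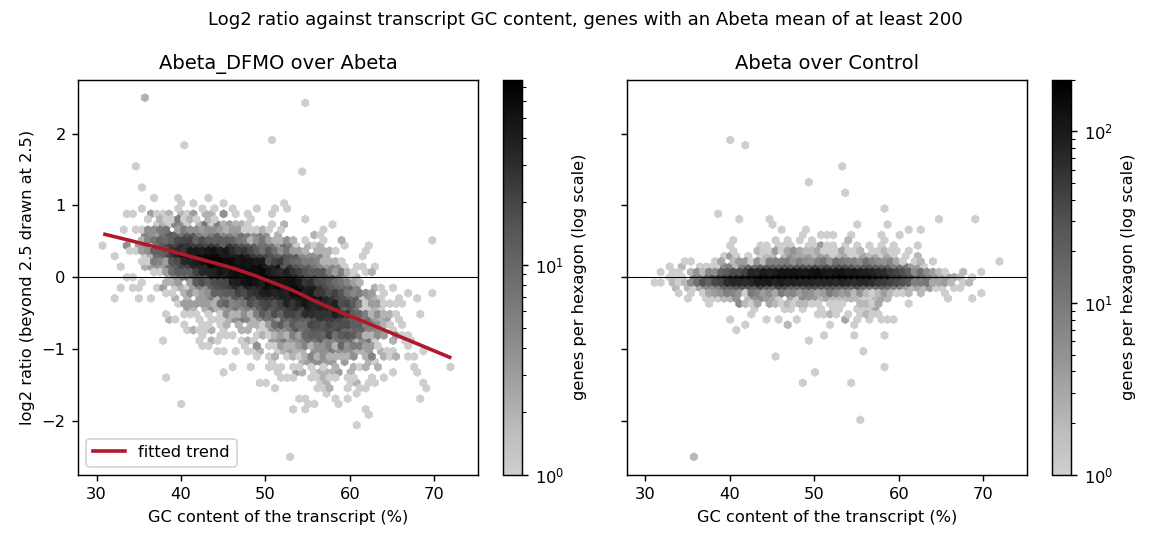
Log2 ratio (vertical axis) against GC content of the longest coding transcript in percent (horizontal axis) for 11660 genes, for Abeta_DFMO over Abeta on the left and Abeta over Control on the right. Darker hexagons hold more genes on a log scale, values beyond 2.5 are drawn at 2.5, and the red line is the fitted trend, which falls from left to right on the left panel; the right panel lies flat around 0.

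The coding starts of 5 genes from the ends of the GC scale are given as examples. They come from the called genes of lowest and highest transcript GC among those with an Abeta mean of at least 5000. A coding start need not have the GC content of its whole transcript. These windows held 43.3% GC for Arhgap5, 27.8% for mt-Nd6, 57.8% for Mt3, 68.9% for Map7d1 and 61.1% for Ptms. The first 90 coding bases are given 5′ to 3′ from the GENCODE M21 transcripts, with every G and C in capitals.
Arhgap5: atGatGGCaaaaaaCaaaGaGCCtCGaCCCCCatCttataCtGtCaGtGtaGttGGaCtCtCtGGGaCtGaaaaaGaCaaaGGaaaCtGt
mt-Nd6: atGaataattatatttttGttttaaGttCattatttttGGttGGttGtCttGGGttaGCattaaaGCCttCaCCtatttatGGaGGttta
Mt3: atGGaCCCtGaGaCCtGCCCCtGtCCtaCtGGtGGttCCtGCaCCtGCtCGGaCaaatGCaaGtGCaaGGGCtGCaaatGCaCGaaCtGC
Map7d1: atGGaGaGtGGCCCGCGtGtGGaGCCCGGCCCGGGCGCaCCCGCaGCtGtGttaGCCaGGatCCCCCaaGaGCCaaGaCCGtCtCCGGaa
Ptms: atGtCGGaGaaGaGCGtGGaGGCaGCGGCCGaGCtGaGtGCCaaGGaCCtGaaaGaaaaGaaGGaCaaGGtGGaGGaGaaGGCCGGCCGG

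Arhgap5, a GTPase-activating protein with 33.9% GC in its whole transcript, lies on chromosome 12 at 52503972 to 52571975 (plus strand, GRCm38). It had a log2 ratio of 0.46 in the authors' deposited table and −0.05 once the trend was taken off. Map7d1, a microtubule-associated protein gene with 62.5% GC on chromosome 4 at 126232167 to 126256343 (minus strand), went from −0.66 in the authors' deposited table to −0.00. For Ptms (parathymosin, 65.3% GC) the log2 ratio was −0.86 in the authors' deposited table and −0.07 after the trend. The complex I subunit mt-Nd6 (34.1% GC) and the disulfide isomerase Tmx3 (35.3% GC) went from 0.39 and 0.47 in the authors' deposited table to −0.12 and −0.01. Mt3, a metallothionein with 62.3% GC, was at −0.39 in the authors' deposited table and at 0.26 after the trend, on the other side of 0. Each of these 6 genes had been called by the authors, and none was called after the trend was removed.

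By the authors' deposited table, 714 of the genes kept were called higher (6.12%) and 952 lower (8.16%) at an adjusted p under 0.05. In the lowest of 10 equal groups by GC content 337 were higher and 7 lower, and in the highest 1 was higher and 392 lower in the authors' deposited table. With the trend taken off each log2 ratio, 169 genes were called higher (1.45%) and 158 lower (1.36%) by a Wald test with Benjamini-Hochberg adjustment, and 1484 had an unadjusted p under 0.05. After adjustment these 2 end groups held 9 higher and 20 lower, and 17 higher and 12 lower. Of the 327 genes called after adjustment, 218 had also been called by the authors in the same direction, 109 had not, and none had been called in the opposite one. A further 1448 authors' calls were not called after adjustment. List counts after adjustment are to be read beside the shares over all genes kept, 1.45% higher and 1.36% lower. Of all genes kept, 5844 lay above 0 after adjustment and 5816 below. In what follows, "rose" and "fell" refer to the calls after GC adjustment, and log2 ratios are GC-adjusted unless the authors' table is named.

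The error behind these calls was also set against the scatter of the genes themselves. Among 10 equal groups of genes ordered by Abeta mean, the highest held 113 of the 327 calls. There the scatter of the GC-adjusted log2 ratios was 0.174 while the median standard error implied by the authors' p-values was 0.107. In the lowest group the values were 0.369 and 0.361. When the error of each gene was made at least as large as the scatter of genes of like level, a setting chosen after seeing the data and called the wider error here, 25 genes were called higher (0.214%) and 57 lower (0.489%). All 82 were among the 327, which was fixed in advance, since a larger error can only raise each p-value. Counts under the wider error stand beside the groups that held calls.

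**Figure D2:**
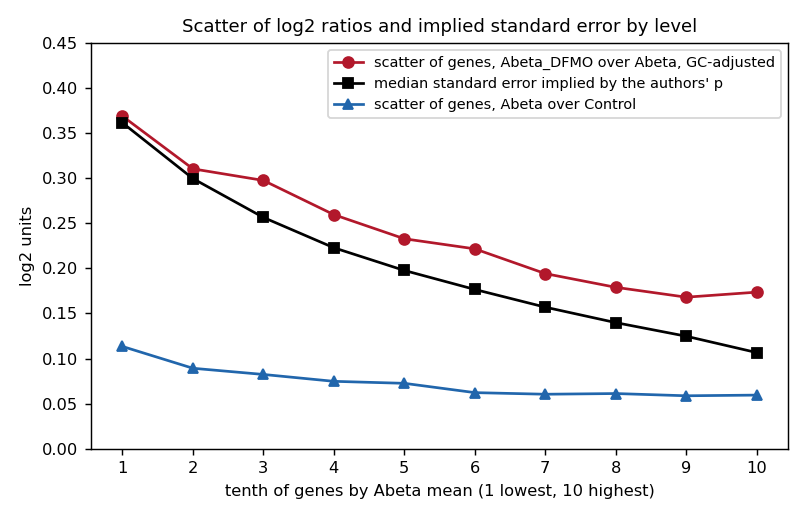
Size of scatter or error in log2 units (vertical axis) for 10 equal groups of genes ordered by Abeta mean (horizontal axis). Circles show the scatter of GC-adjusted log2 ratios of Abeta_DFMO over Abeta, squares the median standard error implied by the authors' p and triangles the scatter of Abeta over Control; the circles lie above the squares throughout, by most in the highest group.

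Genes of polyamine synthesis and its control included 2 that rose and none that fell among 13 measured; the authors' table had called 4 higher and 2 lower. The list's median log2 ratio was 0.23, beside 0.00 for all genes kept. Odc1 (chromosome 12, 17544794 to 17551505, plus strand, GRCm38) had a normalized mean of 8744 in Control and 9293 in Abeta and a value of 12235 in Abeta_DFMO in the authors' deposited table. Its log2 ratio was 0.54 (implied standard error 0.104, adjusted p = 4.79e-05). Amd1 (chromosome 10, 40287458 to 40302186, minus strand) stood at 2545, 2578 and 4828 in the authors' deposited table, with a log2 ratio of 0.62 (implied standard error 0.125, adjusted p = 0.00011). For both genes Control and Abeta lay close together and the Abeta_DFMO library lay above them. Amd1 passed with the wider error and Odc1 did not (adjusted p = 0.125). With the GC content of the coding sequence in place of the transcript's, Odc1 was at 0.26 and also did not pass (adjusted p = 0.125). Amd1 has a near-identical copy, Amd2, so its reads could be split or shared between them.

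The other steps of the pathway did not pass. Azin1, Srm and Sms had log2 ratios of 0.26, 0.26 and 0.11, and the antizymes Oaz1 and Oaz2 had −0.17 and −0.28. Azin1, Oaz1 and Oaz2 were among the genes called in the authors' deposited table, at 0.61, −0.56 and −0.47. Azin1 has a low-GC transcript (39.3%) and Oaz1 a high-GC one (56.9%), and the fitted trend alone gave 0.35 and −0.38 for them.

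Polyamine breakdown and transport was represented by 6 genes, of which Smox fell. Smox encodes spermine oxidase, which turns spermine back to spermidine (chromosome 2, 131491496 to 131525922, plus strand). It stood at 891 in Control, 831 in Abeta and 373 in Abeta_DFMO in the authors' deposited table, about 49.9 reads, with a log2 ratio of −0.91 (implied standard error 0.259, adjusted p = 0.0228). It did not pass with the wider error (adjusted p = 0.0625). Sat1, which acetylates spermidine and spermine for export, was at −0.33 (adjusted p = 0.143). The hypusine pathway held none that passed: Eif5a was at −0.09, Dhps, which starts hypusine synthesis, at 0.09 and Dohh, which completes it, at −0.02. None of the 10 genes of arginine, proline and ornithine supply passed either.

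Translation factors (43 genes) had 1 member that rose and none that fell, with a median of 0.10. The member was Eif4a2, an RNA helicase of the initiation complex (0.34, adjusted p = 0.0434); it passed in 6 of 12 other settings, and not with the wider error (adjusted p = 0.751). None of the 20 aminoacyl-tRNA synthetases, 32 genes of ribosome biogenesis or 31 proteasome subunits passed. Among 71 cytosolic ribosomal proteins 4 rose and 1 fell, and 2 rose with the wider error. Rpl26 (0.70), Rpl13 (0.93) and Rpl37 (0.86) were among those higher and Rpl3 (−0.55) was the one that fell. With coding GC, Rpl26 was at 0.30 (adjusted p = 0.165), and with the straight-line trend Rpl3 missed the threshold (adjusted p = 0.056). Many ribosomal proteins have processed pseudogenes of near-identical sequence, so reads can be split among copies and these values are uncertain.

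Among mitochondrial transcripts both ribosomal RNAs rose and 1 mRNA fell. The 13 mitochondrially encoded mRNAs, whose median GC content was 37.1%, had a median log2 ratio of 0.35 in the authors' deposited table, which called 8 higher; after GC adjustment the median was −0.09, and 1 fell. It was mt-Nd3 (−0.72), a subunit of complex I, and it passed with the wider error. In the authors' deposited table mt-Nd3 had 4874 in Abeta and 4315 in Abeta_DFMO (log2 ratio −0.18) and was not called. The fitted trend at its 33.0% GC was 0.54, so most of its fall came from the adjustment. The ribosomal RNAs of the mitochondrion rose: mt-Rnr2 by 3.08 and mt-Rnr1 by 2.56, both also with the wider error. Their implied standard errors were 0.333 and 0.356, against a median of 0.107 in the highest group by Abeta mean. Both errors already lay above the scatter of that group, 0.174. In the authors' deposited table mt-Rnr1 was 46812 in Control, 8260 in Abeta and 66654 in Abeta_DFMO, and mt-Rnr2 was 168517, 23348 and 273583. For both RNAs the Abeta group was thus the low one, and Abeta_DFMO lay above Control as well. The libraries were selected for polyadenylated RNA, and how much of these RNAs each library retained was not tested. Abeta was also the lowest group for Rn7sk, a small nuclear RNA (1032, 436 and 745 in the authors' deposited table; log2 ratio 1.21). Of 52 nuclear-encoded respiratory chain subunits 2 rose, Atp5j (0.66) and Cox4i1 (0.39), of which Atp5j passed with the wider error. With coding GC these were at 0.03 and 0.04, and neither passed; Cox4i1 passed in 2 of 12 other settings.

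**Figure D3:**
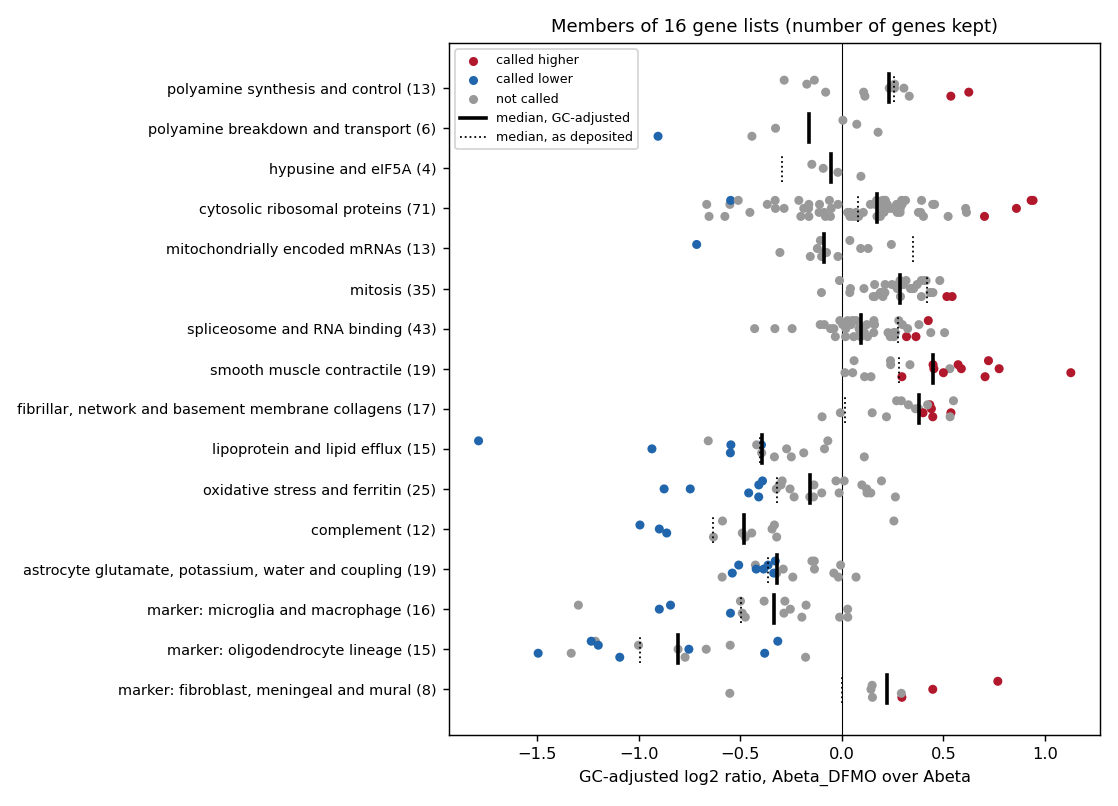
GC-adjusted log2 ratio of Abeta_DFMO over Abeta (horizontal axis) for each member kept of 16 gene lists (rows, with the number of genes). Red points were called higher, blue points lower and grey points were not called; solid bars mark the list's median after GC adjustment and dotted bars the median as deposited. After adjustment every smooth muscle member lies above 0 and every oligodendrocyte lineage marker below 0.

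Contractile genes of smooth muscle included many that rose. Of 19 measured, 10 rose and none fell, all 19 lay above 0 after GC adjustment, and the median was 0.45; with the wider error 3 rose. Before adjustment, the authors' deposited table had called 7 higher and none lower, 6 of the 19 lay below 0 in it, and the median was 0.28. The actin-myosin apparatus supplied most of them. Myl9, the regulatory light chain of smooth muscle myosin (chromosome 2, 156775420 to 156781658, plus strand), stood at 9691 in Control, 9803 in Abeta and 12490 in Abeta_DFMO in the authors' deposited table, with a log2 ratio of 0.72 (implied standard error 0.0986, adjusted p = 2.08e-10). Tpm2 and Tpm1, the tropomyosins that lie along actin filaments, rose by 0.77 and 0.50, and Cald1 (caldesmon, which binds both) by 0.57. Myl9, Tpm2 and Actg2 were those that passed with the wider error. Actg2, the enteric smooth muscle actin (chromosome 6, 83512905 to 83536265, minus strand), had the largest change of the list at 1.13, from 962 in Abeta to 1878 in Abeta_DFMO in the authors' deposited table. Acta2, its vascular counterpart, was at 66644 and 81013 in the authors' deposited table, with a log2 ratio of 0.30 that missed the threshold with transcript length added to the trend (adjusted p = 0.0603). Coding regions of the actin genes are nearly identical, so reads may be shared among them. In Control and Abeta the values of these genes were close, for instance 5005 and 4883 for Tpm2 in the authors' deposited table.

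Promoters of contractile genes are known for the CArG box, the site bound by serum response factor (Srf). The box was searched, after the values were seen, in windows of 250 bases before to 50 after each RefSeq start (GRCm38.p6); its pattern is the same on both strands. It was present for 137 of 8821 genes kept with a promoter entry (1.55%), for 7 of 115 that rose (6.09%), for 3 of 100 that fell (3%) and for 5 of 17 of the smooth muscle list (29.4%). Of these 5 only Myl9 and Vcl rose, and both are counted among the 7 as well; Cnn2, Myl6 and Srf were not called. A match is a description of letters only. The stretches before the start are shown for 2 genes of the list that rose, for Fhl2, which rose outside it, and for Srf, with each box in capitals; Srf holds 2.
Myl9, chr2:156775248-156775367, plus strand: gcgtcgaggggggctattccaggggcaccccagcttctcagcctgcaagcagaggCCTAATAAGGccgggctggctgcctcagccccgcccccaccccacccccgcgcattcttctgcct
Vcl, chr14:20929148-20929235, plus strand: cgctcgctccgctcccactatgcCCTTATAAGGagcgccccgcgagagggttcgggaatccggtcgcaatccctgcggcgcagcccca
Fhl2, chr1:43163962-43164047, minus strand: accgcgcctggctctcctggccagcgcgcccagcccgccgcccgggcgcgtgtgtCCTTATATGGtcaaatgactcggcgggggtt
Srf, chr17:46556180-46556299, minus strand: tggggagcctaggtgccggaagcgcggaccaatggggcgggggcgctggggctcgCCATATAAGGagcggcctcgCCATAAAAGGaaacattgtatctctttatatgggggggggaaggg

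Vcl (vinculin, an anchor of actin at focal adhesions) rose by 0.45 and Fhl2, a LIM-domain partner of several transcription factors, by 0.85. Srf itself was at 0.24 and did not pass. Lats2, a kinase of the Hippo pathway, rose by 0.60 and passed with the wider error.

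Some collagen genes were higher. Among 17 collagen genes 5 rose and none fell, with a median of 0.38 that had been 0.02 in the authors' deposited table; collagen transcripts are GC-rich, with a median of 56.2%. None passed with the wider error. Markers of fibroblasts, meninges and vessel walls summed to 136178 in Abeta and 149806 in Abeta_DFMO in the authors' deposited table. Acta2, itself in the contractile list, made up 66644 and 81013 of these sums. Col1a2 (4283 and 4680) and Foxc1 (894 and 1207) were also higher there. Col1a1 (9010 and 7885), Pdgfrb (2011 and 1841) and Rgs5 (411 and 343) were lower. The part of these markers in the contractile and collagen values was not tested. Col5a2 (0.54), the basement membrane chain Col4a1 (0.44), Col1a2 (0.45) and Col8a1 (0.40) rose; with coding GC Col8a1 was at 0.84. The fifth, Col4a2, rose by 0.43 only after the GC adjustment, since it had 4689 in Abeta and 4278 in Abeta_DFMO in the authors' deposited table (log2 ratio −0.13). Col4a1 had 10336 and 10448 in the authors' deposited table (log2 ratio 0.02). Of 33 other matrix genes 5 rose and 1 fell. Lox (lysyl oxidase, which crosslinks collagen and elastin) was at 3798 in Control, 3819 in Abeta and 7005 in Abeta_DFMO in the authors' deposited table, and it rose by 0.67; with coding GC it was at 1.26. Thbs1 (thrombospondin-1) rose by 0.53 and Nid1 (nidogen-1) by 0.49. Tnr (tenascin-R), a matrix protein of oligodendrocytes, fell by 0.96. Lox and Tnr passed with the wider error.

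Matrix proteases and their inhibitors split, with 2 of 27 higher and 3 lower. Mmp12, a macrophage elastase (chromosome 9, 7344381 to 7369499, plus strand), had the largest fall among genes called both by the authors and after adjustment, leaving out unnamed predicted genes. It was 921 in Control, 3410 in Abeta and 976 in Abeta_DFMO in the authors' deposited table, with a log2 ratio of −2.13 (implied standard error 0.177, adjusted p = 2.45e-29). Its level in Abeta_DFMO was thus near that of Control, from which Abeta_DFMO was not tested here. Mmp15 fell by 0.63, and Adam9 and Htra1 rose by 0.39 and 0.54. Htra1 was not called in the authors' deposited table, where its log2 ratio was 0.19. Of these 4, only Mmp12 passed with the wider error. Adam8 (−1.56) and Anpep (−1.64), surface proteases outside this list, fell and also passed with it; Anpep rested on about 22.0 reads. Anpep was at 196 in Control, 584 in Abeta and 164 in Abeta_DFMO in the authors' deposited table. It thus met the minimum only in Abeta, the group to which the minimum was applied. A further 240 genes were under the minimum in Abeta but reached it in Abeta_DFMO. They were left out, so rises of that kind could not be called after adjustment.

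Genes of lipid uptake, storage and efflux included several that fell. In the lipoprotein and lipid efflux list (15 genes) 5 fell and none rose, 14 lay below 0 and the median was −0.39; 2 fell with the wider error. Cd36, a scavenger receptor for fatty acids and oxidised lipoproteins (chromosome 5, 17781690 to 17888801, minus strand), stood at 1544 in Control, 2851 in Abeta and 1073 in Abeta_DFMO in the authors' deposited table. Its log2 ratio was −1.79 (implied standard error 0.171, adjusted p = 7.41e-22), larger after the GC adjustment than before it (−1.41 in the authors' deposited table). Plin2, the coat protein of lipid droplets, was 3623, 4869 and 2333 in the authors' deposited table and fell by 0.94. Lpl (lipoprotein lipase) fell by 0.55 and Apoe by 0.40; with coding GC Lpl was at −0.36. Cd36 and Plin2 were those that passed with the wider error. Apoe was at 67078 and 35645 in the authors' deposited table, whose log2 ratio was −0.91, of which the GC trend (59.5% GC) held −0.52. Of 29 genes of cholesterol and fatty acid synthesis 1 fell and none rose, 25 lay below 0 and the median was −0.20. The gene that fell was Scd2 (−0.49), a fatty acid desaturase. With coding GC Scd2 was at −0.25 (adjusted p = 0.0804), and it did not pass with the wider error (adjusted p = 0.705).

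Some genes of the lysosome list and of the oxidative stress and ferritin list fell, and most members of these lists were not called. Gpnmb, a lysosomal glycoprotein of phagocytes, was 17328 in Control, 42816 in Abeta and 20889 in Abeta_DFMO in the authors' deposited table and fell by 1.02, also with the wider error. Spp1 (osteopontin) was 45593, 61668 and 40398 in the authors' deposited table and fell by 0.83, without passing with the wider error (adjusted p = 0.0996). For both genes Abeta was the highest group. The summed level of microglia and macrophage markers, described further on, was 63710 in Abeta and 46109 in Abeta_DFMO in the authors' deposited table, and its part in these falls was not tested. Among 35 lysosomal genes 4 fell and none rose, 12 lay above 0 and the median was −0.06. They were the cathepsins Ctsb (−0.47) and Ctsd (−0.38) and the membrane proteins Cd68 (−0.84) and Cd63 (−0.41). With the straight-line trend Cd63 missed the threshold (adjusted p = 0.0562), and with coding GC Ctsd was at −0.64. With the wider error Cd68 was called. Of 25 genes of oxidative stress and ferritin 6 fell and none rose, 1 with the wider error. It was Ftl1, the ferritin light chain, at 15613, 18174 and 7285 in the authors' deposited table (log2 ratio −0.88, adjusted p = 1.30e-14). The heavy chain, Fth1, was at −0.01 and did not pass. Ftl1 has processed copies, and the reads of all may be shared. Prdx6 (−0.41) and the metallothioneins Mt2 (−0.39) and Mt1 (−0.41) fell as well, while the neural metallothionein Mt3 was at 0.26 and did not pass. With coding GC, Mt1 missed the threshold (adjusted p = 0.0894).

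**Figure D4:**
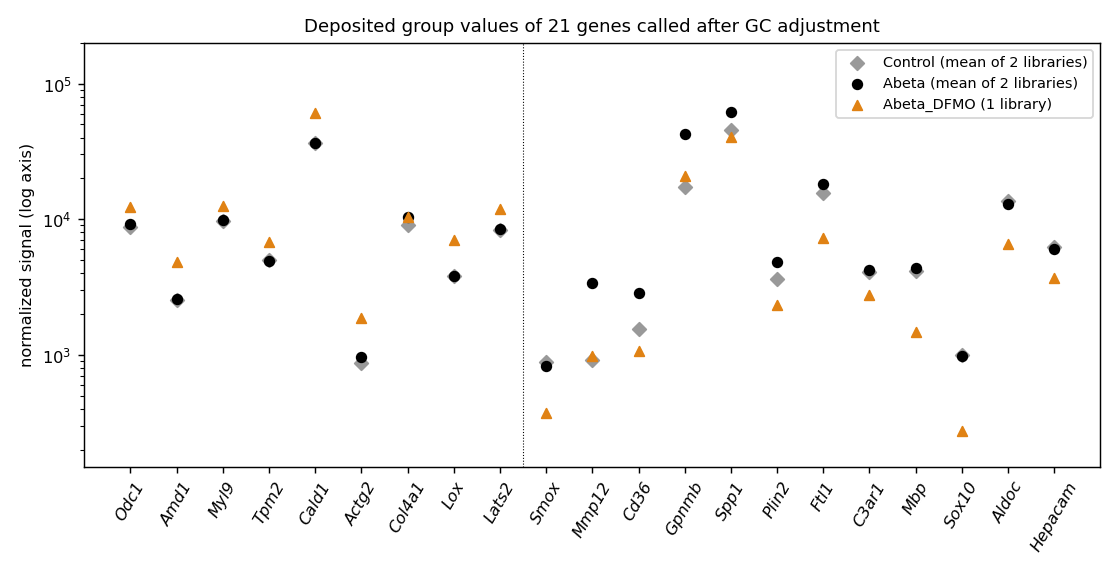
Normalized signal of 21 genes called after GC adjustment (log axis) in Control (diamonds, mean of 2 libraries), Abeta (circles, mean of 2 libraries) and Abeta_DFMO (triangles, 1 library), as deposited; genes left of the dotted line were called higher and those right of it lower. Diamonds and circles nearly coincide for most genes, whereas for Mmp12 (921, 3410 and 976) and Gpnmb (17328, 42816 and 20889) the circle lies above both other points.

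Complement genes were lower, with 3 of 12 falling, none rising, 11 below 0 and a median of −0.48; 2 fell with the wider error. They were C1qc (−0.90), a chain of the initiating C1q complex, and C3ar1 (−0.86), the receptor of the C3a fragment; C5ar1, the C5a receptor, fell by 0.99, without passing with the wider error or with coding GC (adjusted p = 0.0873). The sister chains C1qa and C1qb, named after their values were seen, were at −0.48 and −0.49 and did not pass. No member of the interferon response and antigen presentation list (20 genes) passed. Of 13 chemokines and cytokines Csf1 (0.45), the growth factor of microglia, and Tgfb3 (0.55) rose and Spp1 fell. None of these passed with the wider error (adjusted p = 0.326, 0.0641 and 0.0996). Csf1 and Tgfb3 were not called in the authors' deposited table, where their log2 ratios were 0.21 and 0.38.

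Markers of cell types were measured to read these changes beside the makeup of the cultures. Fewer cells of a type and less RNA per cell cannot be told apart in bulk RNA. The labelled cell type was present in both groups: Gfap was 57495 in Abeta and 41383 in Abeta_DFMO and Aqp4 19686 and 20240 in the authors' deposited table. All 13 astrocyte markers lay below 0 and 5 fell, among them Aldoc (−0.87), Glul (−0.42), Aldh1l1 (−0.44) and Slc1a3 (−0.36); Aldoc passed with the wider error. Their summed level was 210917 in Abeta and 164712 in Abeta_DFMO in the authors' deposited table. The part of the cultures' makeup in the gene groups described above was not tested.

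Of 16 microglia and macrophage markers kept, 3 fell and none rose, 14 lay below 0 and the median was −0.33. The 3 were Cd68, C1qc and Lyz2 (−0.55), of which Cd68 and C1qc also passed with the wider error. Over the 20 markers in the table the summed level was 63710 in Abeta and 46109 in Abeta_DFMO in the authors' deposited table. Aif1, Mrc1, P2ry12 and Tmem119 were below the minimum, and Tyrobp (−0.01), Ptprc (0.03) and Laptm5 (0.03), named after their values were seen, did not follow the rest.

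Oligodendrocyte lineage markers had the lowest median of the 7 marker lists, at −0.81: 7 of 15 fell and none rose. With the wider error 5 fell. Mbp, the basic protein of myelin, was 4182 in Control, 4374 in Abeta and 1468 in Abeta_DFMO in the authors' deposited table (log2 ratio −1.50, adjusted p = 3.82e-21). Sox10, the lineage's transcription factor, was 997, 975 and 276 in the authors' deposited table and fell by 1.20 on about 36.9 reads. Ugt8a, which makes myelin galactolipid, fell by 1.23. The summed level of the 16 markers in the table was 50133 in Abeta and 27292 in Abeta_DFMO in the authors' deposited table, and 50529 in Control.

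Among 8 markers of fibroblasts, meninges and vessel walls 3 rose (Foxc1 at 0.77, Col1a2 and Acta2) and none fell. None passed with the wider error. Col1a2 and Acta2 stand in the collagen and contractile lists as well. Foxc1 and Col1a2 were not called in the authors' deposited table, where their log2 ratios were 0.43 and 0.13. The defining fibroblast markers Dcn and Lum were at 76.9 and 16.2 in Abeta and 67.1 and 14.9 in Abeta_DFMO in the authors' deposited table, under the minimum. Neuron markers were mixed, with Stmn2 higher (0.44) and Gap43 lower (−0.55; with coding GC adjusted p = 0.176) of 6 kept and the other 7 in the table under the minimum; neither passed with the wider error. Of 10 endothelial and 10 ependymal markers in the table, 2 and 4 were kept and none passed after adjustment.

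Genes of astrocyte functions, of which Glul, Slc1a3 and Mlc1 are also markers, were lower. Of 19 genes of glutamate and potassium uptake, water transport and coupling 7 fell and none rose, 18 lay below 0 and the median was −0.32; 1 fell with the wider error. Hepacam, a cell adhesion protein of astrocyte endfeet, fell by 0.51 and was the member that passed with the wider error. Glul (glutamine synthetase), Atp1b2 (−0.39) and Slc1a3 (the glutamate transporter GLAST) fell too, whereas Slc1a3 was at −0.21 with coding GC (adjusted p = 0.217). Among 26 reactive astrocyte genes 2 fell: Serpina3n, an acute-phase protease inhibitor (−0.78, also with the wider error), and S1pr3 (−0.47). Aldoc was also the single member that fell of 19 genes of glycolysis and lactate.

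Mitosis genes lay above 0 in 33 of 35 cases, with a median of 0.29 after adjustment and 0.42 before it in the authors' deposited table. The authors' table called 16 of them higher, and after GC adjustment 2 rose: Anln (0.52), an actin-binding protein of the cleavage furrow, and Kif20a (0.54), a kinesin of the same stage. None passed with the wider error, and with no minimum Kif20a missed the threshold (adjusted p = 0.0716). Their transcripts have a median GC content of 46.0%. None of 36 DNA replication genes passed. The spliceosome and RNA-binding list went from 17 higher and 1 lower of 43 in the authors' deposited table to 3 higher, with Hnrnph1 (0.43), Hnrnpa2b1 (0.32) and Luc7l3 (0.36); its median fell from 0.28 to 0.09 at a median GC content of 44.1%, and none passed with the wider error. With length added to the trend Hnrnpa2b1 missed the threshold (adjusted p = 0.0594), as did Luc7l3 with no minimum (adjusted p = 0.0586). For the 32 genes of the unfolded protein response, 19 p53 targets and 22 cytosolic chaperones none passed after adjustment, against 6, 7 and 7 in the authors' deposited table.

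Signalling lists held few calls, as did all genes kept (1.45% higher and 1.36% lower). Of 28 Wnt pathway genes the receptors Fzd7 (0.50) and Fzd1 (0.51) rose and none fell. Neither receptor passed with the wider error or with no minimum (adjusted p = 0.063 and 0.0752), and Fzd1 passed in 5 of 12 other settings. They were not called in the authors' deposited table, where their log2 ratios were 0.28 and 0.19. None of 26 genes of BMP and TGF-beta signalling, 16 of Notch and Hedgehog signalling or 23 immediate early genes passed. Of 24 genes of amyloid precursor processing and related disease genes 2 fell, Apoe and Mapt, which encodes the microtubule protein tau. Mapt fell by 0.83, without passing with the wider error (adjusted p = 0.0761). Tmem67, a protein of the base of the cilium, was the single member that rose of 30 genes of cilium and microtubule motors (0.59), but it passed in 6 of 11 other settings and neither with coding GC (adjusted p = 0.144) nor with the wider error. Thbs1 was the single member that rose of 16 secreted factors that act on synapses, without passing with the wider error, and none of 9 genes of GABA synthesis and handling passed.

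The authors' deposited pathway table for the same comparison held 242 gene sets, of which 171 had an adjusted p under 0.05, with a ratio over 1 for 57 and under 1 for 114. Its smallest p belonged to Fc gamma R-mediated phagocytosis, at a ratio near 1 (0.988, adjusted p = 2.15e-38 in the authors' deposited table). The second smallest belonged to arginine and proline metabolism (ratio 0.806, adjusted p = 7.96e-24 in the authors' deposited table). The list of arginine, proline and ornithine supply used here is not that gene set, so the 2 cannot be compared. Odc1, Amd1 and Smox, which were called after GC adjustment, stand in other lists here. The GC trend is not removed from that table, and the sources used here do not give its test. Genes under the minimum were left out of the calls, list counts and medians above, though some stand in the marker values and sums. Of these 7003 genes, 38 were called in the authors' deposited table, 27 higher and 11 lower. The smallest p among the 38 belonged to the predicted gene Gm10800. It was at 229 in Control, 15.7 in Abeta and 887 in Abeta_DFMO in the authors' deposited table. Also among the 38 was Myh11, the smooth muscle myosin heavy chain, picked out after its values were seen. It was at 107 in Control, 138 in Abeta and 358 in Abeta_DFMO in the authors' deposited table, with no GC-adjusted value here.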

How the data were processed

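RNA from 5 libraries was analysed from group values. Per the file headers, the authors' deposited DESeq2 table gives for each gene the least-squares mean of each group, taken here as a normalized signal, with the ratio and log2 ratio of those means, a p-value and an adjusted p-value. The deposited pathway table gives a ratio and p-value per gene set, and the deposited library summaries give total reads, the percent in exons, and quartiles of signal, per the file headers. The submitters' processing notes name STAR 2.7.3a, Partek, DESeq2 and FastQC, and the mm10 and GRCm39 builds, with no role. They do not give the counting program, annotation or strand setting.

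GC content came from the longest coding transcript of GENCODE M21 (GRCm38), matched by symbol. A lowess curve (span 0.3, 3 iterations) of log2 ratio on GC over genes with an Abeta mean of at least 200 was subtracted. The remainder was divided by the standard error implied by the authors' two-sided p (size of the log2 ratio over its normal deviate). Where the log2 ratio was within 0.02 of 0 or no error could be had, the running median error of 201 genes of like level was used. Wald p-values were adjusted by Benjamini-Hochberg over 11660 genes and called under 0.05. A log2 ratio near 0 gives an imprecise implied error. The planned edgeR test was not run, since it needs counts per library. The procedure was tested on simulated data whose noise followed the implied errors. That test could not check whether these errors were large enough. The wider error took the larger of the implied error and the running scaled median absolute deviation over 201 genes. Python 3.11.15 with numpy 2.4.6, pandas 2.3.3, scipy 1.17.1 and statsmodels 0.14.6 was used.

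The members and the 47 gene lists were chosen with earlier results of these data known, so none is independent support. Named genes were the 12 largest rises and falls called both ways, up to 4 called members per list by p, otherwise the 1 with the smallest p, the 6 smallest p in each direction, 12 polyamine genes, and 3 called genes, by either rule, at each GC end with an Abeta mean of at least 5000. Unnamed predicted genes and pseudogenes were left out. Vcl, Srf, Gfap, Aqp4, Myh11 and the other genes outside this rule were named after their values were seen. Some genes that the rule picks are not reported here. The CArG search and 3 alternatives were also added then. No alternative could leave out a library, since the table holds group means.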

Additional observations from a re-analysis of the deposited data

How the results depend on the processing

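The 327 calls after GC adjustment numbered between 285 and 347 under 8 of the 12 other settings tried: minimum Abeta means of 50 (314) and 1000 (308), none (285) or 200 on the average of both groups (332), 50 GC bins (332), a straight line (347), transcript length added (308) and 10 added to each mean (312). GC content of the coding sequence gave 561 (361 higher, 200 lower), of which 210 were shared with the 327. A running median of the implied error gave 493 (176 higher, 317 lower), a threshold of 0.01 gave 183 (95 higher, 88 lower), and the wider error gave 82 (25 higher, 57 lower). The cause was not tested.

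The 1724 calls of the authors' deposited table became 2066 when adjusted again over genes with an Abeta mean of at least 200, and 1768 (887 higher, 881 lower in place of 751 and 973) when centred on the median gene. The rho with GC content was −0.65 and −0.75 at minimums of 50 and 1000, and −0.66 with coding GC.

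Of the genes named, 7 changed sign in some setting, all near 0 and not called where they did. Tmx3 was at 0.00055 (minimum 50), 0.032 (minimum 1000), 0.037 (bins) and 0.079 (coding GC). Map7d1 was at 0.027 (minimum 1000) and 0.033 (bins), Arhgap5 at 0.036 (bins) and 0.048 (length), and Dohh at 0.017 (bins). With coding GC, Dhps was at −0.012, H1f0 at 0.060 and Mt3 at −0.029. Over all named genes and settings, 120 values of called genes missed the threshold, most often with the wider error, and 14 values of uncalled genes passed it. No paired analysis was possible because Abeta_DFMO has 1 library and the table gives group means; for the same reason leaving out each Abeta library was not run. Depth limits the low genes most: at the minimum, 1 read is worth 7.466 of 200 units.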

Other observations

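Of the 327 genes called after GC adjustment, 236 were in none of the 47 lists. Those described here were chosen after their values were seen and carry no test as groups. Several higher genes encode parts of cell-matrix adhesions and the actin cortex: Itgb1 (0.36), Ilk (0.40), Fermt2 (0.35), Palld (0.54), Actn4 (0.47), Myh9 (0.45), Myl12a (0.45), Wdr1 (0.44) and Dstn (0.44) on the GC-adjusted log2 scale. Activin subunits Inhba (0.78) and Inhbb (0.70), the TGF-beta antagonist gene Pmepa1 (0.64) and the growth factor binding proteins Igfbp3 (0.60) and Igfbp7 (0.52) were higher as well. None of these 14 genes passed with the wider error.

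Lower genes outside the lists held further phagocyte genes: Cybb (−1.13), a subunit of the NADPH oxidase, the sensors Tlr13 (−1.07) and Tlr7 (−0.78), the Fc receptor Fcgr3 (−0.95), Lcp1 (−0.66) and Mpeg1 (−0.65). All of these but Tlr7 passed with the wider error. Tubulin genes Tuba1a (−0.51), Tubb2a (−0.39), Tubb2b (−0.54), Tubb4a (−0.61) and Tubb4b (−0.34) were lower; their coding regions are alike and reads may be shared. The adhesion molecules Cntn1 (−0.65), Nfasc (−0.65), Lsamp (−0.63) and Chl1 (−0.40), which neurons and oligodendrocytes use, were also lower. Of the genes called higher, 85.2% were annotated as protein coding, and of those called lower 88.6%, against 93.7% of all genes kept.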
